A study of Mus musculus with 240 samples.

Results

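The 10 genes described here are known outputs of ERK signalling, followed in mouse brain from early precursor cells to tumours: the phosphatases Dusp4 and Dusp6, the inhibitors Spry1, Spry2, Spry4 and Spred1, the transcription factors Etv1, Etv4 and Etv5, and Phlda1. They were taken by symbol from the deposited table of expected counts, where each of the 10 matched 1 of 34623 genes, and all 10 were among the 16349 genes tested in bulk tissue. The cells were tdT-positive oligodendrocyte precursor cells (OPCs), the dividing glial cells that give rise to oligodendrocytes, and brain tumour cells, cut out of frozen sections by laser. Bulk libraries came from 37 mice. Wild-type (WT) mice were sampled at 12, 90 and 150 days after the start of tamoxifen (dpi), with 5, 5 and 6 animals. Mice of genotype Trp53-/- Nf1-/- (CKO) were sampled at 12 and 90 dpi, with 7 animals each, and as 7 brain tumours at 150 dpi. Small libraries came from CKO mice only, at 12 and 90 dpi: 56 libraries per time of 10 cells captured together, and 40 per time of pool-and-split libraries, which the labels name as controls. The tdT label was common to all bulk groups, and the time of every group is counted from tamoxifen. The labels used here do not name the promoter that drives the deletion or the reporter, nor the animals' ages.

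In the MAPK cascade, receptor tyrosine kinases load RAS with GTP, and RAS then acts through RAF and MEK on the kinase ERK. NF1, one of the 2 deleted genes, is a GTPase-activating protein that returns RAS to its inactive form. ERK output is held back by proteins whose own genes ERK induces. Dusp4 and Dusp6 encode phosphatases that dephosphorylate MAP kinases, Dusp6 acting on ERK in the cytoplasm and Dusp4 in the nucleus. Sprouty proteins inhibit signalling between receptor and RAF, and SPRED1 recruits neurofibromin to the membrane. Etv1, Etv4 and Etv5 encode the PEA3 group of ETS factors, whose binding sites hold a GGAA core, and Phlda1 encodes a pleckstrin homology domain protein induced by growth factors.

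RefSeq promoters of build GRCm38.p6, from 250 bases before to 50 bases after a transcript start, were at hand for 6 of the 10 genes (8 promoters, 2 each for Etv1 and Etv5). Printed here are those of the 4 genes that were called higher in tumours in both comparisons below and kept these calls without any 1 animal (1 of the 2 for Etv5). Those of Etv1, whose calls ended without single animals, and of Spred1, which was not called, are not printed. Both strands were searched for the ETS letters CCGGAA and their longer form CCGGAAGT, which contains them, for the cAMP response element TGACGTCA, for the AP-1 site TGANTCA and for the CArG box of serum response factor. Capitals mark a match.
Spry1, chr3:37639697-37639996, + strand: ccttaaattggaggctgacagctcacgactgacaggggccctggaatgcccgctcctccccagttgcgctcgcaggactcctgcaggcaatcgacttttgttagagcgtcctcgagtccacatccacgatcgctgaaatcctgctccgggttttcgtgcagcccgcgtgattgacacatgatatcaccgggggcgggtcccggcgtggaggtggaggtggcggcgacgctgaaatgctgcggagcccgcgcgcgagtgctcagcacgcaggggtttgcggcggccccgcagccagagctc
Spry2, chr14:105896770-105897069, - strand: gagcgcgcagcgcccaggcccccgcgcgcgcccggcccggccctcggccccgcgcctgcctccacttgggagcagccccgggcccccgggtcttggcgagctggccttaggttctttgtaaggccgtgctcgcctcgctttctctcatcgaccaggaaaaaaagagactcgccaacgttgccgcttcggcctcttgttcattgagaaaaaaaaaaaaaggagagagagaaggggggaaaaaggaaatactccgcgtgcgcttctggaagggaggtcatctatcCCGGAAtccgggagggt
Dusp6, chr10:99262981-99263280, + strand: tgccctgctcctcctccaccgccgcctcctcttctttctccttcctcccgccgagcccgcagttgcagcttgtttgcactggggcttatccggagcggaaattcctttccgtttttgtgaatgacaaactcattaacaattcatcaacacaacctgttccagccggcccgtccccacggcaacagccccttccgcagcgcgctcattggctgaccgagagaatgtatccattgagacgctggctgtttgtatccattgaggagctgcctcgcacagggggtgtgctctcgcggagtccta
Etv5, chr16:22439521-22439820, - strand: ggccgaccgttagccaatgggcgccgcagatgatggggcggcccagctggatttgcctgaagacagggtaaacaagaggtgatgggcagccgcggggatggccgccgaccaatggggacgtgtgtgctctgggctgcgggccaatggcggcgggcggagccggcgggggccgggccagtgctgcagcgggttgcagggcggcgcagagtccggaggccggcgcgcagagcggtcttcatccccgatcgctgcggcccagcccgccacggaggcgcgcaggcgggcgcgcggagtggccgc
One match was found in the 8 promoters, the CCGGAA in Spry2, which begins at base 34 of the transcript. Over 32851 promoters of the same length CCGGAA occurs in 14.9%, CCGGAAGT in 3.89%, the cAMP response element in 1.79%, the AP-1 site in 7.81% and the CArG box in 1.63%. These counts describe letters in windows of 300 bases, which span the start of the first exon. The genes themselves lie on GRCm38 with Spry1 at chr3:37639947-37644598, Spry2 at chr14:105891949-105896819, Dusp6 at chr10:99263231-99267489 and Etv5 at chr16:22381309-22439719. Without a promoter in the table, Etv4 lies with its exons and introns at chr11:101769742-101785371. GC content ran from 57.3% in Dusp6 to 74% in the Etv5 promoter shown.

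Bulk libraries held 0.0937 to 23.2 M counts, with a median of 10.0 M (1 M is 1000000 counts). The shallowest library, from WT animal WT_21167 at 90 dpi, makes a level of 9.48 CPM (counts per 1000000 counts of the scaled total) out of 1 count, so its values for these genes are coarse. Nf1 was lower in CKO than in every WT animal at 12 dpi, at 191 ± 16.1 CPM (SD, n = 7) against 312 ± 41.2 (SD, n = 5), with an edgeR adjusted p of 0.0918. Trp53 was at 31.4 ± 3.70 against 32.3 ± 8.78 CPM at 12 dpi and was not called. At 90 dpi Nf1 was at 196 ± 49.5 CPM (SD, n = 7) in CKO against 300 ± 27.0 (SD, n = 5) in WT, with an edgeR adjusted p of 0.145. The groups overlapped at 90 dpi: the highest CKO animal, CKO_20647, had 302 CPM of Nf1, within the WT range of 274 to 343 CPM. In tumours against WT at 150 dpi Nf1 was lower (log2 change -0.47, adjusted p 0.0035) and Trp53 higher (0.74, adjusted p 0.0097). Counts over a whole gene include transcript outside a deleted part, which the labels do not give, so they check the Trp53 genotype only in part. OPC markers were detected in every group, and none of the 12 was at 0 in all animals of a group. Markers of neurons summed to 6015 to 14063 CPM over the 30 animals without a tumour, beside 1907 to 3758 CPM of OPC markers in WT at 150 dpi. In bulk samples fewer cells of a type and less RNA per cell cannot be told apart.

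**Figure D1:**
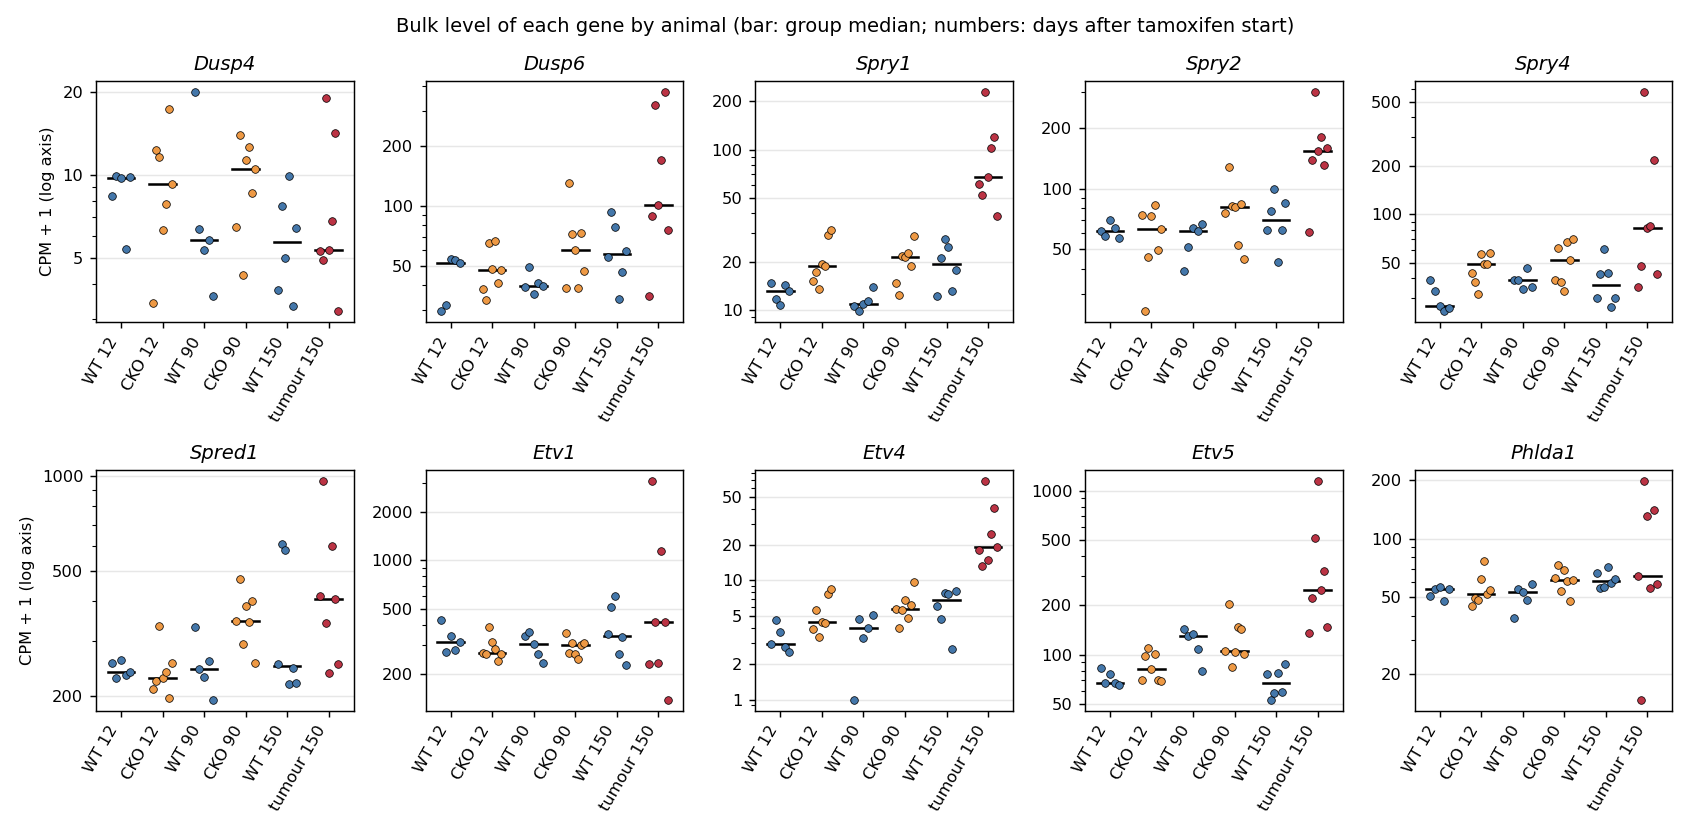
Level of each of the 10 genes in every bulk animal, as CPM + 1 on a log axis, by group (WT blue, CKO orange, tumours red; bars are group medians). In Spry1 and Etv4 all 7 tumours lie above every other animal, while in Etv1, Phlda1 and Dusp4 the tumours scatter on both sides of the WT animals.

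Levels between genes were compared as CPM per kb of merged exons. In WT animals at 150 dpi Spred1 stood at 52.1 ± 27.5 (SD, n = 6), Spry2 at 33.9 ± 9.51, Etv1 at 28.8 ± 11.1, Phlda1 at 27.6 ± 2.82, Dusp6 at 19.2 ± 6.92 and Etv5 at 16.5 ± 3.27 CPM per kb. Spry4 at 7.97 ± 2.70, Spry1 at 6.33 ± 2.15, Dusp4 at 1.83 ± 0.91 and Etv4 at 1.67 ± 0.69 formed the low end. Neighbours in this order lay within 1 SD of each other's range, apart from the steps from Etv5 to Spry4 and from Spry1 to Dusp4. In tumours the order was headed by Etv5 at 95.3 ± 87.4 (SD, n = 7), followed by Spry2 at 76.3 ± 34.6, Spred1 at 67.5 ± 37.3, Etv1 at 61.0 ± 80.0 and Dusp6 at 53.0 ± 42.0. Phlda1 was at 42.5 ± 28.9, Spry1 at 32.7 ± 22.5, Spry4 at 32.3 ± 41.0, Etv4 at 8.83 ± 6.42 and Dusp4 at 2.69 ± 2.13 CPM per kb. Etv4 was the lowest of the PEA3 factors per length in both groups. The merged exons of Etv1 cover all its isoforms, which lowers its value per length. Merged exons ran from 2087 bases in Spry2 to 13296 in Etv1. Whether counts scaled with that length after linear amplification was not tested, so the order holds for this measure only.

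The first comparisons asked whether loss of Trp53 and Nf1 moved these genes before tumours form. Spry1, an inhibitor of receptor signalling, had the smallest unadjusted p at both times and was not called. At 12 dpi its levels in the 5 WT animals were 13.7, 10.6, 9.71, 13.3 and 12.2 CPM, and in the 7 CKO animals they ran from 12.4 through a median of 17.8 to 30.4 CPM. At 90 dpi the WT animals had 9.48, 8.82, 9.85, 10.3 and 12.8 CPM, and the CKO animals 11.4 to 28.1 CPM with a median of 20.4. The groups overlapped at both times, each time through the single lowest CKO animal. At 90 dpi this was CKO_20647, whose 2 libraries gave 0.53 and 18.8 CPM of Spry1 and also disagreed on Etv1 (34.4 and 418.8 CPM). The log2 change of Spry1 was 0.65 (SE 0.31, unadjusted p 0.0417, adjusted p 0.999) at 12 dpi and 0.80 (SE 0.32, unadjusted p 0.0176, adjusted p 0.896) at 90 dpi.

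Of the other 9 genes none passed the test either. At 12 dpi 0 of 10 were called in edgeR (0 in DESeq2, 1 at an unadjusted p under 0.05), against 0.0183% of all genes tested, and 0 of 10 had groups that did not overlap, against 1.33%. At 90 dpi 0 of 10 were called (0 in DESeq2, 1 at an unadjusted p under 0.05), against 0.0489%, and 0 of 10 had groups that did not overlap, against 0.758%. Of all 16349 genes, 793 at 12 dpi and 850 at 90 dpi had an unadjusted edgeR p under 0.05. On simulated data the comparison at 12 dpi found 22% of changes of 1 on the log2 scale and 95% of changes of 2. The lack of calls thus does not show that levels were unchanged. At 12 dpi Etv4 had the largest log2 difference, 0.81 (SE 0.41), followed by Spry1, by Spry4 at 0.58 (SE 0.44) and by Etv5 at 0.28 (SE 0.33). Those of Dusp4, Dusp6, Spry2, Spred1, Etv1 and Phlda1 at 12 dpi lay between -0.10 and 0.14. At 90 dpi Dusp4 had 0.91 (SE 0.48), Dusp6 0.70 (SE 0.40), Etv4 0.62 (SE 0.40) and Spred1 0.51 (SE 0.27), while Spry4 had 0.41, Spry2 0.40, Phlda1 0.22, Etv5 0.11 and Etv1 -0.06. The median over the 10 genes was 0.11 at 12 dpi and 0.46 at 90 dpi, beside 0.03 and 0.04 over all genes. At 90 dpi 9 of 10 log2 differences were above 0, as were 55.2% of those of all genes. Among the CKO animals at 90 dpi CKO_20647 had the highest Dusp4, Dusp6, Spry2, Spred1, Etv5 and Phlda1. It had the lowest Spry1 and Etv4. Its Dusp6 was at 129 CPM, beside a CKO median of 59.0 CPM. With 1 animal left out the differences at 90 dpi ran from 0.39 to 0.80 for Dusp6 and 0.72 to 1.05 for Dusp4. They ran from 0.44 to 0.82 for Etv4 and 0.37 to 0.62 for Spred1. In WT animals at 90 dpi Dusp4 was at 2.64 to 5.33 CPM in 4 animals, and at 19.0 CPM from 2 counts in WT_21167.

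Between times, none of the 10 genes passed the threshold. In CKO animals 0 were called between 12 and 90 dpi (background 0%, 0 in DESeq2, 1 at an unadjusted p under 0.05). Of all 16349 genes 696 had an unadjusted edgeR p under 0.05. The log2 differences in CKO were 0.57 for Etv5 (SE 0.30) and 0.55 for Spred1 (SE 0.24), and those of the other 8 genes lay between -0.07 and 0.46. In WT animals 0 were called between 12 and 90 dpi (0.00612%, 0 in DESeq2 and 0 at an unadjusted p under 0.05). Between 90 and 150 dpi 0 were called too (0.0183%, 0 in DESeq2, 2 at an unadjusted p under 0.05). The 2 were Spry1 (log2 change 0.87, SE 0.33, edgeR unadjusted p 0.0134) and Etv5 (edgeR unadjusted p 0.0279). Over all 16349 genes the unadjusted edgeR p was under 0.05 for 795 between 12 and 90 dpi and for 1350 between 90 and 150 dpi. The WT animals had an Etv5 level of 82.1, 66.0, 75.7, 65.9 and 64.5 CPM at 12 dpi, 142, 129, 132, 107 and 78.2 CPM at 90 dpi, and 52.2 to 86.5 CPM (median 66.7) at 150 dpi. Its log2 change was 0.75 (SE 0.37, edgeR adjusted p 1) from 12 to 90 dpi and -0.81 (SE 0.35, edgeR adjusted p 0.55) from 90 to 150 dpi. With the 2 groups fitted alone the first of these was called (0.63, adjusted p 0.0392). The genotype effect changed between 12 and 90 dpi for 0 of 10 genes (background 0%, 0 in DESeq2 and 0 at an unadjusted p under 0.05). For this change 589 of 16349 genes had an unadjusted edgeR p under 0.05.

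**Figure D2:**
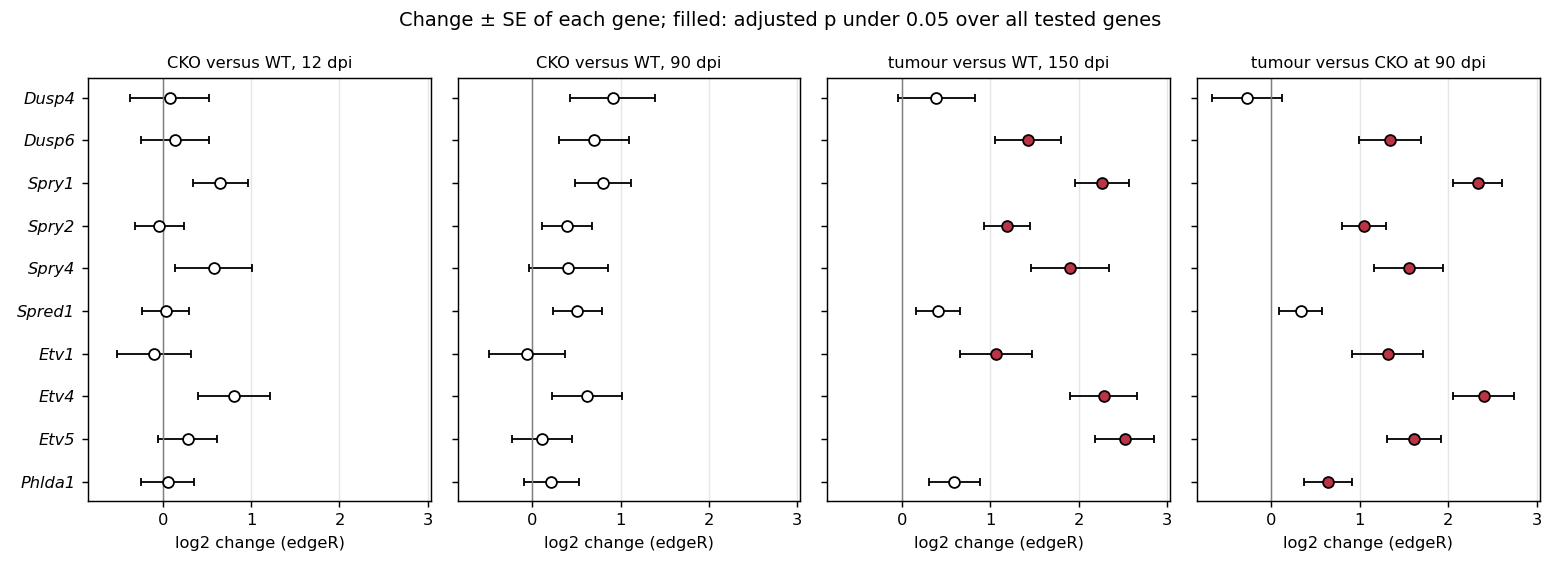
The log2 change of each gene (point) with its SE (bar) in 4 comparisons, fitted with edgeR. No point is filled in the 2 CKO panels, 7 are filled against WT at 150 dpi and 8 against CKO at 90 dpi, and every filled point lies above 0.

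Tumours were then compared with WT OPCs of the same time and with CKO OPCs at 90 dpi. These comparisons share the 7 tumours, so each gene's values stand side by side below. Against WT 7 of the 10 genes were higher and 0 lower, where 24.3% of all genes tested were called higher. Against CKO at 90 dpi 8 were higher and 0 lower, where 26.4% of all genes were. The median log2 change of the 10 genes was 1.31 against WT and 1.33 against CKO, beside 0.06 and 0.12 over all genes. Groups without overlap, the tumours being higher, were found for 3 of 10 genes against WT (Spry1, Etv4 and Etv5, background 6.72%) and for 2 of 10 against CKO (Spry1 and Etv4, background 6.77%). Tumours differed widely from WT in other ways: 46.2% of genes were called, 52.6% of them higher, or 62.1% with RLE size factors, which moved the median of all genes to 0.22. Against CKO these shares were 53.8% and 63.5%, and the median 0.29. Under that scaling 8 of the 10 genes were higher in both comparisons.

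Of the phosphatases, Dusp6 rose and Dusp4 was not called. Dusp6 was at 33.0 to 92.6 CPM in WT animals at 150 dpi (median 56.3), at 37.3 to 129 CPM in CKO animals at 90 dpi (median 59.0), and at 33.9, 74.6, 87.9, 100.3, 169, 322 and 374 CPM in the 7 tumours. In 4 tumours Dusp6 exceeded all WT animals, while Tumor_16713 lay near the lowest WT animal. The log2 change was 1.43 (SE 0.38, adjusted p 0.0021) against WT and 1.34 (SE 0.35, adjusted p 0.0017) against CKO. Dusp4 was at 2.34 to 8.88 CPM in WT (median 4.67), 3.33 to 13.0 CPM in CKO (median 9.50) and 2.20 to 17.9 CPM in tumours (median 4.31). Its log2 differences of 0.39 (SE 0.44, adjusted p 0.494) and -0.28 (SE 0.39, adjusted p 0.587) were smaller than their SE. Between the 2 libraries made from each tumour the median difference of Dusp4 was 0.62 on the log2 scale and that of Dusp6 0.19.

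All 3 Sprouty genes were higher in tumours, and Spred1 was not called. Spry1 was at 11.2 to 26.6 CPM in WT (median 18.4) and at 37.7, 51.3, 60.3, 66.6, 102, 119 and 228 CPM in tumours, so that every tumour exceeded every WT and every CKO animal. Its log2 change was 2.26 (SE 0.30, adjusted p 1.14e-07) against WT and 2.33 (SE 0.28, adjusted p 9.21e-09) against CKO. Spry2 was at 42.3 to 98.6 CPM in WT (median 69.2), 43.8 to 127 CPM in CKO (median 80.1) and 60.0, 129, 137, 153, 157, 179 and 299 CPM in tumours. The log2 change of Spry2 was 1.19 (SE 0.26, adjusted p 3.3e-04) against WT and 1.04 (SE 0.25, adjusted p 6.62e-04) against CKO. All tumours except Tumor_16713 exceeded every animal of both groups.

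Spry4 varied most among the Sprouty genes. It was at 25.7 to 60.1 CPM in WT (median 35.3), 32.4 to 69.3 CPM in CKO (median 51.3) and 34.5, 41.7, 46.9, 81.1, 83.0, 216 and 573 CPM in tumours. In 3 tumours Spry4 lay within the WT range, and Tumor_16840 had the 573 CPM. The log2 change was 1.90 (SE 0.44, adjusted p 5.19e-04) against WT and 1.55 (SE 0.39, adjusted p 0.0013) against CKO. Without Tumor_16840 these were 1.20 (adjusted p 0.0015) and 0.74 (adjusted p 0.0302). Fitted on tumours and WT alone Spry4 was not called against WT (1.52, adjusted p 0.0681). Spred1 was at 218 to 608 CPM in WT (median 248), 254 to 469 CPM in CKO (median 346) and 236 to 962 CPM in tumours (median 407). Its differences were 0.41 (SE 0.25, adjusted p 0.190) against WT and 0.33 (SE 0.24, adjusted p 0.265) against CKO. Spred1 came past the threshold against WT without WT_21591 (0.62, adjusted p 0.0451) or without Tumor_16844 (0.58, adjusted p 0.0477).

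The PEA3 factors were all called higher, with different patterns over the tumours. Etv5 was at 52.2 to 86.5 CPM in WT at 150 dpi and at 135, 147, 222, 246, 324, 514 and 1150.3 CPM in tumours. Every tumour exceeded every WT animal at 150 dpi, and 5 of 7 exceeded every CKO animal at 90 dpi (83.0 to 203 CPM, median 105). The WT animals at 90 dpi had 78.2 to 142 CPM of Etv5, and the lowest tumour, Tumor_16713 at 135 CPM, lay within that range. The log2 change of Etv5 was 2.52 (SE 0.33, adjusted p 8.81e-08) against WT and 1.61 (SE 0.30, adjusted p 3.58e-05) against CKO. Etv4 was at 1.67 to 7.08 CPM in WT (median 5.90), 3.00 to 8.76 CPM in CKO (median 4.79) and 12.3, 13.9, 17.0, 18.1, 23.7, 39.5 and 67.6 CPM in tumours. Every tumour exceeded every WT and CKO animal in Etv4, whose level was low, with 5 counts in the WT animal that had fewest. Its log2 change was 2.28 (SE 0.38, adjusted p 5.31e-06) against WT and 2.40 (SE 0.34, adjusted p 3.74e-07) against CKO.

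Etv1 exceeded the WT range in 2 tumours only. WT animals had 225 to 606 CPM (median 343), CKO animals 244 to 356 CPM (median 302), and the tumours 138, 231, 231, 416, 418, 1149 and 3098 CPM. Tumor_16839 and Tumor_21256 exceeded all WT animals, Tumor_21354 lay below all of them, and the other 4 lay within the WT range. The log2 change was 1.06 (SE 0.41, adjusted p 0.0312) against WT and 1.32 (SE 0.40, adjusted p 0.0064) against CKO. Without Tumor_16839 it was 0.22 (adjusted p 0.574) and 0.52 (adjusted p 0.128). Against WT the call also ended without WT_21590 (1.02, adjusted p 0.0581), WT_21593 (0.99, adjusted p 0.0555) or WT_22064 (1.02, adjusted p 0.0527). With the compared groups fitted alone Etv1 was called in neither comparison (adjusted p 0.170 and 0.134).

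Phlda1 stood at the threshold. It was at 54.5 to 70.3 CPM in WT (median 59.6), 46.5 to 72.3 CPM in CKO (median 59.9) and 13.7, 54.8, 57.2, 63.3, 129.9, 139 and 198 CPM in tumours. In 3 tumours it exceeded all WT animals, 3 lay within the WT range, and Tumor_16839 had less than any other animal. The log2 change was 0.59 (SE 0.29, adjusted p 0.0946) against WT and 0.64 (SE 0.27, adjusted p 0.0489) against CKO. Leaving out any of 21 of the 37 animals ended the call against CKO (adjusted p 0.05002 to 0.231), as did 3 other alternatives: no filter on low counts, the deepest library of each animal, and the compared groups fitted alone (0.0501 to 0.212). Against WT, Phlda1 was called in DESeq2 (0.74, adjusted p 0.0239) and in edgeR with RLE size factors (0.74, adjusted p 0.0339). It was also called against WT without Tumor_16839 (0.82, adjusted p 0.0023), Tumor_21256 (0.71, adjusted p 0.0490) or Tumor_21354 (0.74, adjusted p 0.0453).

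**Figure D3:**
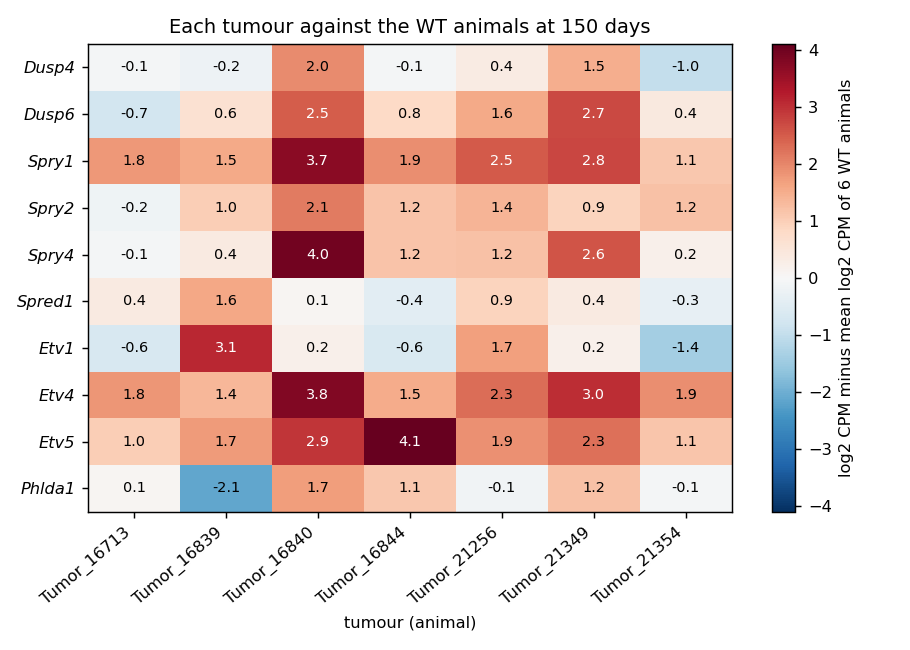
Log2 CPM of each gene (rows) in each tumour (columns) minus the mean log2 CPM of the 6 WT animals at 150 dpi, red above and blue below WT. The Spry1, Etv4 and Etv5 rows are above 0 in all 7 tumours, and the column of Tumor_16839 holds the highest Etv1 and the lowest Phlda1.

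No single tumour was high for all 10 genes. Tumor_16840 had the highest level of 6 of them (Dusp4, Spry1, Spry2, Spry4, Etv4 and Phlda1) and exceeded all WT animals for 8, lying within the WT range for Etv1 and Spred1. Tumor_21349 exceeded all WT animals for 8 genes too, and had the highest Dusp6. Tumor_16839 was highest for Etv1 and Spred1, and Tumor_16844 for Etv5. Tumor_16713 exceeded all WT animals for 3 genes (Spry1, Etv4 and Etv5) and Tumor_21354 for 4. Each tumour had given 2 libraries, and for most of the 10 genes their median difference was small beside the range between tumours, which is an unlike measure. The largest difference between 2 libraries of 1 tumour was 1.64 for Dusp4 (range between tumours 2.56), 0.98 for Etv4 and 0.95 for Spry2 (range 2.30). For Etv5 the median difference between libraries was 0.06 and the range between tumours 3.08 on the log2 scale. For Etv1 these were 0.08 and 4.48, for Spry4 0.14 and 4.02, and for Etv4, with fewer counts, 0.49 and 2.37.

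The 7 tumours also differed from WT in their cell type markers. The 10 neuron markers summed to 256 to 1330 CPM in tumours and 7197 to 10708 CPM in WT at 150 dpi, the 12 OPC markers to 5044 to 9649 against 1907 to 3758 CPM. Microglia markers summed to 326 to 1194 against 138 to 221 CPM, oligodendrocyte markers to 405 to 1659 against 1571 to 3159 CPM, astrocyte markers to 1367 to 3841 against 2797 to 4096 CPM, and endothelial markers to 126 to 268 against 244 to 338 CPM. The 10 proliferation markers summed to 464 to 2220 against 55.5 to 126 CPM. Of these lists 9 of 10 neuron markers and 5 of 10 oligodendrocyte markers were lower, and 10 of 12 OPC, 9 of 10 microglia, 6 of 10 astrocyte and 10 of 10 proliferation markers higher. In the other direction, 1 oligodendrocyte marker (Cnp) was higher and 2 astrocyte markers (Slc1a2 and Gja1) were lower. Of 10 endothelial markers 1 was higher and 2 were lower. No marker was at 0 in all animals of either group. The part of these differences in the changes of the 10 genes, and of the pathway lists below, was not tested.

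Whether the genotype difference itself grew from 90 to 150 dpi was tested as the difference of differences, with tumours as the CKO samples at 150 dpi. It grew for 3 of 10 genes, where 14.2% of all genes were called in that direction: by 2.42 for Etv5 (SE 0.46, adjusted p 9.1e-05), by 1.66 for Etv4 (SE 0.53, adjusted p 0.0145) and by 1.47 for Spry1 (SE 0.42, adjusted p 0.0071), on the log2 scale. With RLE size factors 57.3% of the genes called were higher in place of 47.2%. The WT level differed between 90 and 150 dpi by -0.81 for Etv5, 0.87 for Spry1 and 0.74 for Etv4. Each of these enters the difference of differences of its gene, with the opposite sign. Spry4 missed the threshold (1.495, SE 0.61, adjusted p 0.0592) and Spry2 did too (0.79, SE 0.38, adjusted p 0.117), and both were called in DESeq2 (adjusted p 0.0180 and 0.0431). Spry4 was also called without any 1 of 8 animals (CKO_22212, WT_21592, WT_21593, Tumor_16713, Tumor_16839, Tumor_16844, Tumor_21256 and Tumor_21354), with adjusted p from 0.0213 to 0.0495. Spry2 was called without Tumor_16713 (0.93, adjusted p 0.0419), and Etv1 without Tumor_21354 (1.36, adjusted p 0.0440).

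Other genes of the pathway, in 4 lists that share no gene with the 10, held calls in both directions in tumours. WT samples held more neuron marker RNA than tumours, with a median log2 change of -3.42 over the neuron list. The part of such differences between tissues in the changes of these 4 lists was not tested. In CKO against WT 0 of them were called in edgeR at 12 or 90 dpi. In tumours against WT 7 of 21 cascade genes were higher and 9 lower (median -0.10). Map2k1, which encodes MEK1, was at 68.1 CPM in tumours and 958 in WT (log2 change -3.82, SE 0.31, adjusted p 9.1e-13), the adaptor Grb2 changed by -2.22 and the scaffold Ksr1 by -2.16. Among the rises were the kinase Rps6ka1 (2.02), the adaptor Gab1 (1.89) and the adaptor Shc1 (1.57). Of 14 other feedback genes 5 were higher and 4 lower (median 0.09). Dusp5, a nuclear phosphatase of ERK, was at 1.73 CPM in tumours and 20.3 in WT (log2 change -3.57, SE 0.23, adjusted p 4.26e-15), the opposite direction to Dusp6. Dusp2 (2.84, from 0.234 to 1.44 CPM), Dusp10 (1.59) and the receptor inhibitor Il17rd (1.39) were higher, and Rasa1 (-1.58), a GTPase-activating protein like neurofibromin, and Dusp8 (-1.57) lower.

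Of 14 tested genes in a list of 15 other ERK outputs 4 were higher and 7 lower (median -0.76). Egr1, an immediate early gene, was at 144 CPM in tumours and 1198 in WT (log2 change -3.08, SE 0.35, adjusted p 4.45e-09), and Fosl2 (-2.33) and Epha4 (-2.25) were lower as well. Myc was at 129 CPM against 4.53 (log2 change 4.85, SE 0.31, adjusted p 2.3e-15), Ccnd1, which encodes cyclin D1, at 1014 against 41.7 CPM (4.61) and Ier3 at 24.6 against 2.37 CPM (3.22). Of 10 receptors 7 were higher and 1 lower (median 1.51). Met, the receptor of hepatocyte growth factor, had 6.79 with an SE of 1.47 and overlapping groups, Erbb3 had 2.43 and Egfr 2.42, and Fgfr2 was lower (-1.50). With RLE size factors the cascade list had 8 higher and 8 lower and a median of 0.06, so the sign of that median depended on the scaling. Against CKO the counts higher and lower were 6 and 8, 3 and 6, 3 and 8, and 5 and 1 in the same order of lists. With RLE size factors they were 7 and 7, 5 and 5, 3 and 7, and 7 and 1, and the cascade median moved from -0.17 to 0.01. In tumours against WT the other 3 lists kept the sign of their medians (0.26, -0.61 and 1.68).

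**Figure D4:**
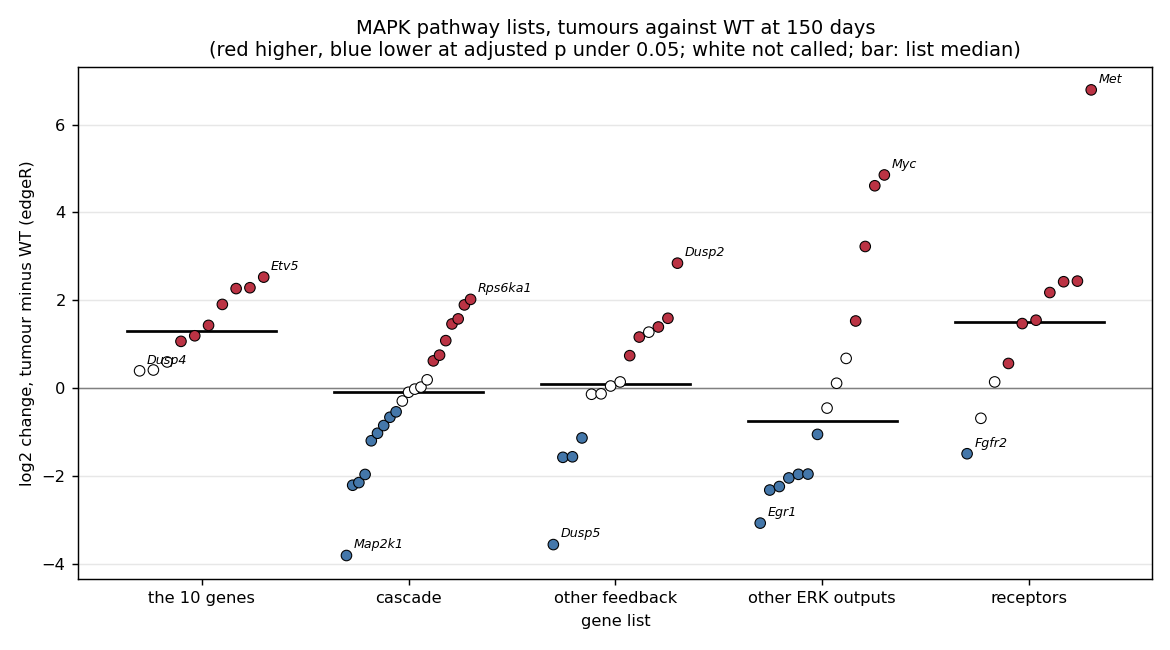
Log2 change in tumours against WT at 150 dpi for the 10 genes and for 4 other lists of the MAPK pathway (each point a gene, sorted within its list; bar, list median). The 10 genes lie above 0, whereas the cascade, other feedback and other ERK output lists hold called genes on both sides of it.

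In small CKO libraries Etv1 and Etv5 were found in most libraries and Dusp4 in few. Etv1 had a count above 0 in 51 of 56 10-cell libraries at 12 dpi (91.1%, exact 95% interval 80.4 to 97.0%) and in all 56 at 90 dpi. Etv5 had one in 48 of 56 (85.7%, 73.8 to 93.6%) and in all 56. Etv4 had one in 13 of 56 (23.2%, 13.0 to 36.4%) and 26 of 56 (46.4%, 33.0 to 60.3%), with up to 456 CPM in a single library. The intervals take libraries as independent and leave out differences between sets of libraries. By set, Etv4 was found in 64.3, 64.3, 35.7 and 21.4% of 10-cell libraries at 90 dpi. Dusp6 was found in 80.4% and 94.6% of 10-cell libraries but at a median of 1.73 and 2.93 CPM. Spry1 was found in 33.9% and 60.7%, Spry2 in 37.5% and 46.4%, Spry4 in 19.6% and 21.4%, Spred1 in 80.4% and 98.2%, Phlda1 in 62.5% and 76.8%, and Dusp4 in 5.36% and 8.93%. In pool-and-split libraries the shares at 12 and 90 dpi were 92.5% and 100% for Etv1, 92.5% and 95% for Etv5, 20% and 45% for Etv4, 82.5% and 92.5% for Spred1, and 30% and 40% for Spry1. They were 70% and 67.5% for Dusp6, 37.5% and 17.5% for Spry2, 10% and 2.5% for Spry4, 77.5% and 52.5% for Phlda1, and 5% and 0% for Dusp4. The 0 of 40 for Dusp4 has an exact upper limit of 8.81% of libraries. The share was thus higher at 90 dpi for all 10 genes in 10-cell libraries and for 5 of 10 in pool-and-split libraries.

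In 10-cell libraries these shares were higher at 90 dpi together with the number of genes found. A 10-cell library held a median of 7550 genes with a count at 12 dpi and 10109.5 at 90 dpi, and 5 and 7 of the 10 genes, so detection of the 10 genes and of all genes was higher at 90 dpi together. In pool-and-split libraries the medians were 8690.5 and 8739 genes, and 5 of the 10 genes at both times, while shares of single genes moved in both directions. Bulk RNA was amplified linearly and small libraries by PCR, so levels were not compared between them.

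**Figure D5:**
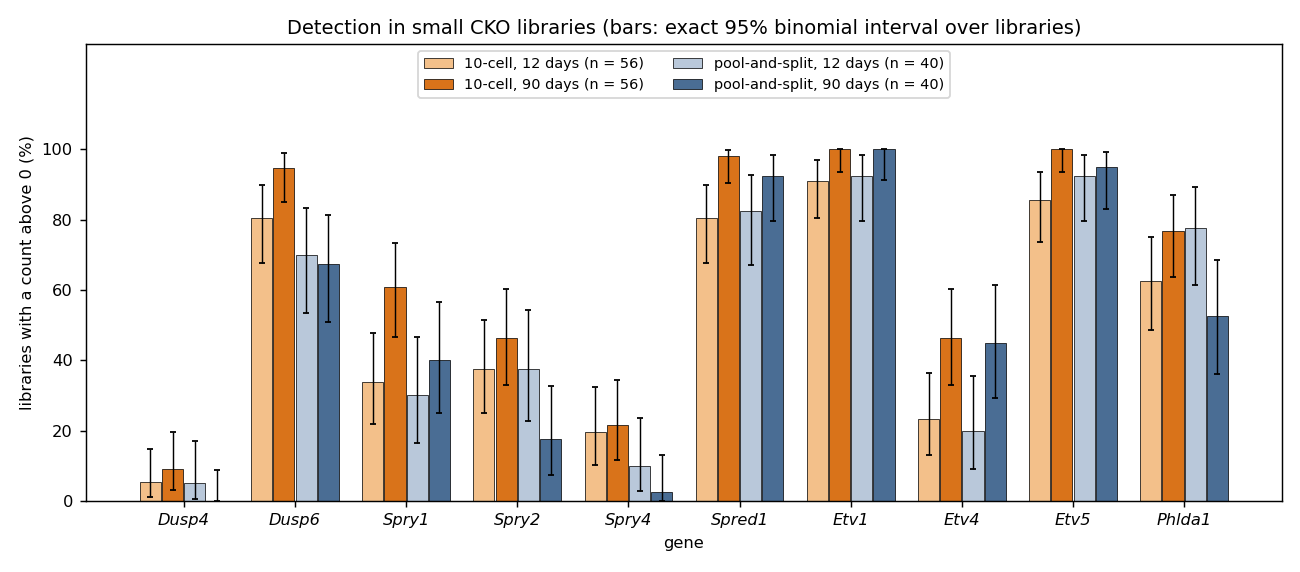
Percent of small CKO libraries with a count above 0 for each gene, by kind of library and time, with exact 95% binomial intervals over libraries. Etv1 and Etv5 reach 100% in 10-cell libraries at 90 dpi, and Dusp4 stays under 10% in all 4 groups.

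Summed over the 14 libraries of a set, the levels of the 9 genes tested did not change past the threshold between 12 and 90 dpi in 10-cell libraries (0 of 9 called in edgeR, 0 in DESeq2, 0 at an unadjusted p under 0.05, background 0%). With 4 sets per time this test could not find changes of the sizes tried on simulated data, so the lack of calls does not show that levels were unchanged, and the values are descriptions. The 4 sets had 128, 76.6, 71.4 and 101 CPM of Etv1 at 12 dpi and 122, 187, 173 and 120.0 CPM at 90 dpi, a log2 difference of 0.68 (SE 0.36, adjusted p 0.722). For Etv5 they had 75.4, 65.8, 58.8 and 59.6 CPM, then 103, 73.9, 72.4 and 89.0 CPM, a difference of 0.39 (SE 0.36, adjusted p 0.832). Spry1 shows how few libraries can set a sum: 1.14, 0.95, 1.21 and 32.5 CPM at 12 dpi, where 1 library reached 390 CPM. In pool-and-split sets, also 4 per time, 0 of 8 tested genes were called (0 in DESeq2, 0 at an unadjusted p under 0.05, background 0%). The unadjusted edgeR p was under 0.05 for 1034 of 14500 genes in 10-cell sets and 1050 of 13408 in pool-and-split sets.

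Variation from library to library was compared between 10-cell and pool-and-split libraries for the 5 genes detected in at least 50% of libraries, Dusp6, Spred1, Etv1, Etv5 and Phlda1, as deviations of log2(CPM + 1) from the median of the set. At 12 dpi 0 of 5 were called in limma, against 0.157% of genes. At an unadjusted p under 0.05 there were 2 of the 5, beside 1013 of all 8889 genes. Etv1 deviated by 0.67 more in 10-cell than in pool-and-split libraries (SE 0.32, adjusted p 0.398). Etv5 deviated by 0.66 more (SE 0.33, adjusted p 0.423). Over all 8889 genes the median difference at 12 dpi was 0.14, and 65.4% of genes were above 0. The SE takes libraries of a set as independent, though they may share an animal. By set, the SD of Etv1 in 10-cell libraries minus that in pool-and-split libraries was 0.18, 2.09, 0.16 and 0.09. For Etv5 these values were 0.30, 0.29, 1.35 and 0.87. With 1 set left out, Etv1 deviated by 0.21 to 0.82 more. At 90 dpi 0 of 5 were called, against 0.0337%, and 0 had an unadjusted p under 0.05, beside 908 of all 8889 genes. The differences at 90 dpi were -0.32 for Etv1 (SE 0.32) and -0.05 for Etv5 (SE 0.33), beside a median of -0.08 over all genes. The change between times was called for 0 of 5, against 0.484%. At an unadjusted p under 0.05 there was 1 of the 5, beside 1276 of all 8889 genes. For Etv1 the change between times was -0.996 (SE 0.45, adjusted p 0.287), and -1.15 to -0.54 with 1 set left out. Over all genes the median change was -0.21, and 34.6% of genes were above 0.

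Genes whose levels followed the 10 genes most closely within groups were ranked by Pearson's r with the mean z-score of the 10, over the deviations of 37 animals from their group means and among 16339 other genes. They were St8sia3 (r 0.81), Igf1r (0.80), Efna5 (0.78), Lrp11 (0.76) and Ube2n (0.74), and the same 5 led without WT_21167. Without the tumours a different set led: Ranbp9 (0.74), Cntn4 (0.73), Asah1 (0.71), Coq10b (0.71) and Uggt2 (0.71). Over the 10-cell libraries of both times, with 5 of the 10 genes and 9123 genes detected widely enough, Akt1s1 (0.55), Grb2 (0.54), Grik5 (0.53), Gm9774 (0.52) and Bri3bp (0.51) came first. All these points share library depth and amplification, and the values are descriptions.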

How the data were processed

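Expression was measured by RNA-seq in 240 libraries. The authors deposited RSEM expected counts per gene (Bowtie2, GRCm38, per the submitters' processing notes; versions are not given in the sources used here). Bulk RNA was amplified linearly with T7 and small libraries by PCR, per the labels' protocols, so reads are not independent molecules and intervals cover counting error only. The 92 spike-ins were left out. Expected counts were rounded, and the 2 libraries of 11 animals were summed. edgeR 4.0.16 (R 4.3.3) quasi-likelihood tests used all 37 bulk animals in 1 fit with sex as covariate, TMM scaling, filterByExpr (minimum count 10, minimum total 15) and Benjamini-Hochberg adjustment over all genes tested. A gene was called at an adjusted p under 0.05. The SE of an edgeR change was taken as its absolute log2 change divided by the square root of the F statistic. CPM are per TMM-scaled total. Small libraries were summed over sets of sex and ending number (4 per time and kind, what the number means is not given in the labels), and spread was tested with limma 3.58.1. DESeq2 1.42.0 was an alternative, among others. The tests were checked on simulated data, where the bulk fits found most of the larger changes and a minority of the smaller ones, and the fit of 10-cell sets found neither. The members and lists were chosen with earlier results of these data known. The rule for names was all 10 members, of other lists at most the 3 largest called rises and falls, Nf1 and Trp53 as a check of the labels, and the 5 genes most like the members by Pearson's r. Animals are named by the numbers in the labels. Same-numbered sets did not deviate together between times (r -0.04 to 0.02).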

Additional observations from a re-analysis of the deposited data

Results flagged for a closer look

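Dusp4 stood apart in 1 WT animal at 12 dpi: WT_22280 had 4.35 CPM, and the other 4 animals 7.40 to 8.88 CPM. Etv4 was at 0 CPM in WT_21167 at 90 dpi, whose library held 93694 counts in all and for which a count of 0 allows up to 3 counts, and at 2.31 to 4.14 CPM in the other 4 animals. These are 2 of 60 combinations of group and gene examined for a sample far from the others, and chance gives about 1 in 20. The genotype difference was larger at 150 dpi, between tumours and WT, than at 90 dpi for Spry1 (by 1.47 on the log2 scale), Etv4 (1.66) and Etv5 (2.42), each tested with an edgeR interaction term.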

How the results depend on the processing

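No called value of a single member changed direction under an alternative, but calls of single members began in 22 cases and ended in 32, among them those of Spry4, Etv1, Phlda1, Spred1 and Spry2 given above. In tumours against WT the alternatives gave 5 to 8 called members (7 reported) and leaving out 1 animal 6 to 8, and against CKO 6 to 8 and 7 to 8 (8 reported). With the compared groups fitted alone 1 of the 10 genes (Etv5) was called in WT between 12 and 90 dpi in place of 0. DESeq2 called 5 of 10 in the growth of the genotype difference from 90 to 150 dpi in place of 3, and leaving out 1 animal at a time gave 3 to 5. Over all genes DESeq2 called 13 in place of 3 in CKO against WT at 12 dpi, 14 in place of 8 at 90 dpi, 2 in place of 0 in CKO over time, 9 in place of 1 and 20 in place of 3 in WT over time, 6 in place of 0 in the first change of the genotype difference, and 274 and 523 in place of 0 in 10-cell and pool-and-split sets. Fitting the compared groups alone gave 92 at 12 dpi and 295 in WT from 12 to 90 dpi. Counts in the spread tests ran from 5 to 60 (14 reported), 3 to 29 (3) and 23 to 151 (43) over pseudocounts, detection limits and scalings. The causes were not tested. With a replicate block of sex and number, 0 genes and 0 members were called in either kind of set. With a replicate block of set, the spread tests called 14, 3 and 46 genes and 0 members. Depth limits single animals most: WT_21167 held 0 counts of Etv4 and 2 of Dusp4.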
